A study of Mus musculus with 8 samples.

Results

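One library of ribosome footprints pulled down with IgG was compared with 2 libraries of polysome footprints, all from mouse brain at postnatal day 5. These 3 libraries, of 8 in the series, were chosen by their labels. The IgG pull-down is the control for unspecific binding in an immunoprecipitation experiment, so the comparison describes which messages an unspecific pull-down of pelleted ribosomes holds, gene by gene, relative to polysomes. Other libraries in the series are 3 immunoprecipitates with an antibody against SMN (survival motor neuron protein) and 2 libraries from RiboLace, a capture of translating ribosomes. They are used here for the spread between libraries and for values set beside the comparison.

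The IgG library came from a phenotypically normal littermate control brain of genotype Smn+/-; SMN2tg/0, and the polysome libraries from early symptomatic brains of genotype Smn-/-; SMN2tg/0. The SMN immunoprecipitates had the genotype of the IgG library and the RiboLace libraries that of the polysomes. All carried the human SMN2 transgene on one allele, on a congenic FVB background, in the Taiwanese mouse model of spinal muscular atrophy (SMA). For the IgG library, the cleared lysate was treated with RNase I at room temperature, and the ribosomes were pelleted, solubilised with Triton and cycloheximide and exposed to IgG on Protein G beads. For the polysome libraries, polysome fractions of a sucrose gradient were pooled and digested with RNase I in the cold, for longer. Genotype, preparation, digestion and pull-down therefore changed together between the groups, and their parts in any difference cannot be told apart. Libraries of a group are biological replicates by their labels. With 1 library in the IgG group, the tests below take its spread from the other groups.

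A ribosome that is translating shields a short stretch of its message from RNase, and sequencing these stretches counts the ribosomes on each message. Polysomes are messages that carry several ribosomes, separated by sedimentation from single ribosomes and free RNA. A ribosome pellet is less selective, since other large RNA-protein particles sediment with ribosomes, and beads with IgG hold whatever binds to them without a specific antibody. Fragments of small stable RNAs, such as the spliceosomal snRNAs, the snoRNAs that guide modification of ribosomal RNA and the miRNAs held by Argonaute proteins, are also read in such libraries when they survive the digestion.

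On 1 transcript per protein-coding gene, the IgG library held 206690 reads and the polysome libraries held 1661834 and 2295393. At least 1 read fell on 13271 coding genes in the IgG library, of 21874 in the table, and on 15949 and 16457 in the polysome libraries. A gene without an IgG read could still have up to 16.1 CPM (counts per 1000000 reads, here scaled with the TMM factors of edgeR), the floor set by 3 counts. This floor and the intervals below cover counting error only, because reads without molecular identifiers are not independent molecules. The counts of the IgG library and of SMN replicate 3 differed with a chi-square of 1.27 per gene and the polysome pair with 1.40, whereas IgG and the polysome libraries differed with 12.2 and 13.6 per gene. The measure grows with depth, so it does not rank pairs of unequal depth. Among the immunoprecipitates, SMN replicate 2 stood apart, with a chi-square of 4.10 per gene against IgG. The IgG library was more concentrated than the polysomes: its 10 most read genes took 7.41% of coding reads, against 2.51% and 2.24%.

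Small RNAs of the nucleus, of mitochondria and of the signal recognition particle took a larger share of the IgG library than of the polysome libraries. Nuclear protein-coding messages took 64.2% of its reads over all genes (95% exact binomial interval 64.0 to 64.4), against 89.0% and 89.2% in the polysome libraries. The difference was spread over several classes. The snRNAs, the RNA cores of the spliceosome, took 13.1% (13.0 to 13.2) in IgG and 0.397% and 0.314% in polysomes. The snoRNAs and the related scaRNAs took 5.25% (5.17 to 5.33) in IgG and 0.206% and 0.201% in polysomes. Ribosomal and transfer RNAs of mitochondria took 3.55% (3.48 to 3.61) in IgG and 0.151% and 0.143% in polysomes. The miRNA genes took 0.829% (0.798 to 0.861) in IgG and 0.0742% and 0.0750% in polysomes. The share of pseudogenes was closer, at 9.32% in IgG against 8.35% and 8.15%. The messages encoded by mitochondrial DNA ran the other way, with 0.193% (0.178 to 0.209) in IgG and 0.784% and 0.779% in polysomes.

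**Figure D1:**
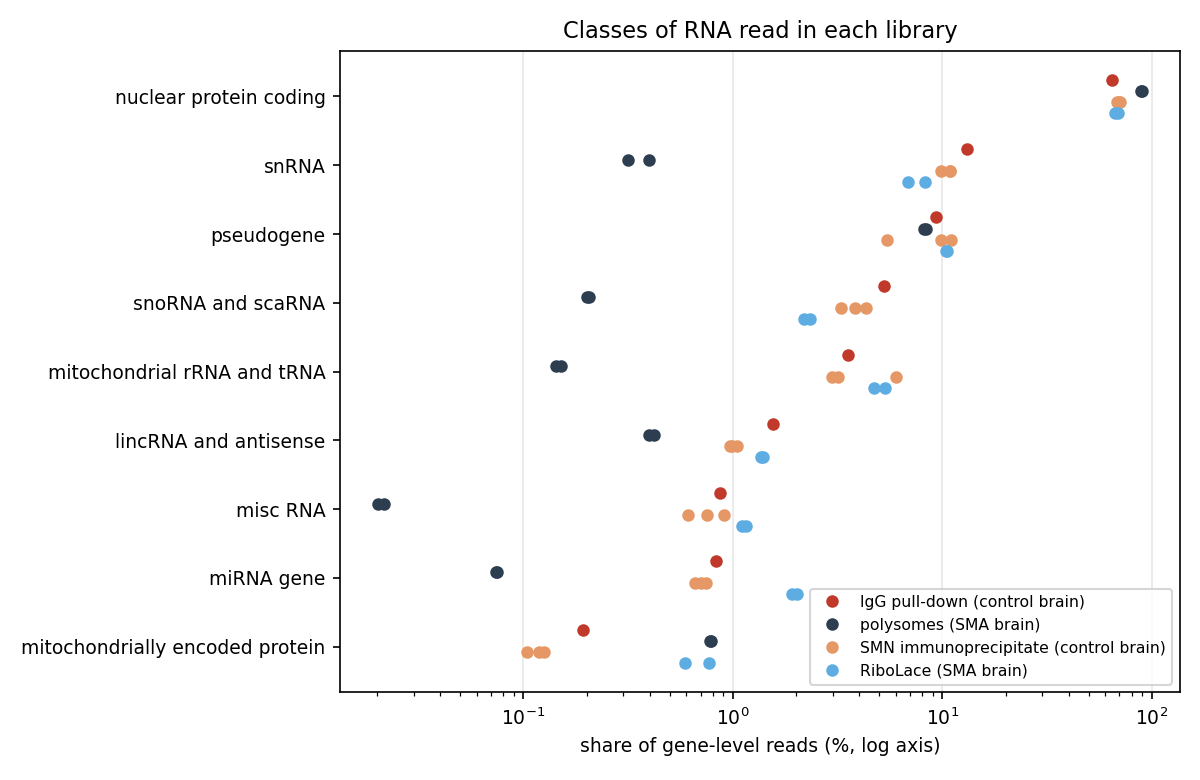
Share of reads over all genes (percent, log axis, 1 transcript per gene) taken by 9 classes of RNA, 1 point per library, coloured by group. For the small RNA classes the IgG point lies far to the right of both polysome points (snRNA 13.1% against 0.397% and 0.314%), and for mitochondrially encoded messages it lies to their left.

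The snRNA share depends on how gene copies are counted. Near-identical copies may hold the same reads, which was not tested. When snRNA genes of the same length were counted once, a rule chosen after the data were seen, snRNAs took 2.07% of the IgG reads and nuclear coding messages 72.4%. With all listed transcripts in place of 1 per gene, the snRNA share was 6.66%. The U2 copy Rnu2-10 held 469 reads in IgG and 125 and 143 in the far deeper polysome libraries. The other captures shared the small RNAs: snRNAs took 9.86% to 10.9% of the SMN immunoprecipitates and 6.87% and 8.22% of the RiboLace libraries, and miRNA genes took 2.01% and 1.90% of the RiboLace libraries, above the IgG share.

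The miRNAs are shown by sequence because reads on these genes can come from the mature strand rather than from a translated message. Of 2193 miRNA genes in the table, 927 had an entry in RefSeq (GRCm38.p6), and 409 had an IgG read. The genes with an entry held 998 of the 2660 IgG reads on miRNA genes, and the other 1662 reads fell on genes with no entry in the table used. The genes with an entry that held the most IgG reads give rise to 4 mature 5′ strands, printed with the seed, bases 2 to 8 that pair with targets, in capitals. No 2 of the 4 share a seed.
miR-125b-5p: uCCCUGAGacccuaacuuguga
miR-181a-5p: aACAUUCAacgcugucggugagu
miR-7a-5p: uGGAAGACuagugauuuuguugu
miR-9-5p: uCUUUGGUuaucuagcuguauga
The first is encoded on the plus strand at chr9:41581940-41581961 in Mir125b-1, which held 27 reads in IgG and 6 and 7 in the polysome libraries. The second is encoded by Mir181a-1 (chr1:137966468-137966490) and Mir181a-2 (chr2:38852741-38852763), both on the plus strand. These held 25 and 26 IgG reads, and 8 and 9 in polysome replicate 1, and since their mature strand is the same the counts may be the same reads. The pair Mir7-1 (chr13:58392841-58392863, minus strand) and Mir7-2 (chr7:78888295-78888317, plus strand) likewise share a strand and held 21 and 22 IgG reads. Mir9-2 (chr13:83738821-83738843) and Mir9-3 (chr7:79505279-79505301), on the plus strand, held 21 and 20. The counts are per hairpin gene, so the arm that was read is not known. These miRNAs are abundant in brain: miR-125b, miR-9 and miR-181a act in neural development, and miR-7 in neurons and endocrine cells.

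In a fit that included noncoding genes, 1622 of 9653 genes were called higher in IgG than in polysomes (16.8%) and 1065 lower (11.0%), by the quasi-likelihood test of edgeR at a false discovery rate of 0.05. Of 1382 snRNA genes 427 passed the filter on low values, and of 2193 miRNA genes 53 did. Low in polysomes, such genes could pass by their IgG level, so the filter itself favours a call upward among them and the number called is not given as support. The class of miscellaneous RNA holds Rn7s1, a 7SL RNA of the signal recognition particle, with 552 reads in IgG against 72 and 96 in polysomes, a log2 change of 5.91 (SE 0.36, adjusted p = 8.55e-14). It also holds Rn7sk, the RNA that restrains the elongation kinase P-TEFb, with 120 reads against 13 and 17, and the Ro-bound RNA Rny1, with 181 against 37 and 63. Both rRNAs of mitochondria were called higher. mt-Rnr2 held 6964 reads in IgG and 1345 and 1738 in polysomes. Among lincRNAs, the nuclear RNA Malat1 held 504 reads in IgG and 94 and 148 in polysomes, a log2 change of 5.27 (SE 0.36, adjusted p = 4.22e-13), and the imprinted neighbours Meg3 and Rian held 177 and 145 in IgG. In this fit the coding genes shifted down against the fit on coding genes alone, and 538 of 7689 protein-coding transcripts were called higher and 1038 lower.

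Among protein-coding genes alone, 749 of 8586 genes tested were called higher in IgG than on polysomes (8.72%) and 366 were called lower (4.26%), by the same test on all 8 libraries. Genes tested had a mean of at least 20 CPM over the 2 groups, on library totals. A gene below 20 CPM in 1 group could pass only by a higher level in the other, which fixes its direction. The filter so favours calls upward among genes low in polysomes and downward among genes low in IgG. Genes called lower had a median of 7 IgG reads, so many of them would not pass by their IgG level alone. Of the calls, 723 higher and 366 lower were at least 2-fold and 186 and 168 at least 4-fold, and the median log2 fold change over all genes tested was -0.01. The calls rest on the spread of all groups: 1 library against 2 cannot reach an exact permutation p below 0.333. Scaling by library totals lowered all fold changes by about the same amount, to a median of -0.25, and gave 522 higher and 824 lower. Leaving out 1 polysome library left 123 to 130 higher and 19 to 24 lower, and leaving out SMN replicate 2 gave 1276 and 969. No call changed direction in any of 18 alternatives, and 81 of the higher and 7 of the lower genes were called in all of them.

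**Figure D2:**
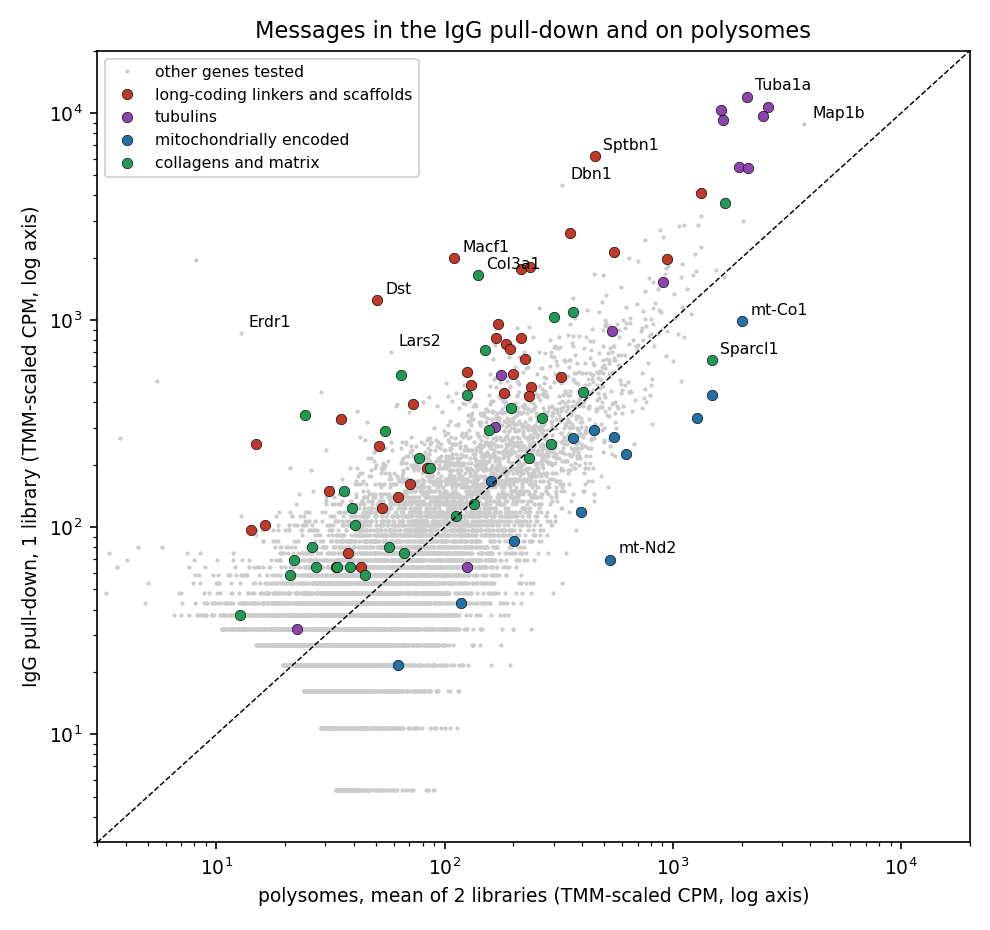
TMM-scaled CPM of each coding gene tested in the IgG library (vertical) and as the mean of the 2 polysome libraries (horizontal), log axes, with 4 gene lists coloured and the dashed line at equality. Genes without an IgG read are not drawn. Long-coding linkers and scaffolds lie above the line in all 36 cases, most tubulins and matrix genes above it, and 12 of 13 mitochondrially encoded messages below it.

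Among the named genes with the largest folds upward, Erdr1, described further below, came first, and several of those after it were very long messages for proteins that link the cytoskeleton. Dst, a spectraplakin that ties intermediate filaments, actin and microtubules to membranes, had 1250 CPM in IgG (95% Poisson interval 1095 to 1422) and 48.1 and 52.8 CPM in the polysome libraries. The SMN immunoprecipitates held 917, 506 and 1095 CPM of it, and the RiboLace libraries 86.6 and 182. The IgG value lay above all 7 others, and the fold change over polysomes was 4.62 on the log2 scale (SE 0.36, adjusted p = 4.78e-11). Macf1, the related spectraplakin of axons and migrating cells, had 1986 CPM in IgG and 113 and 106 in polysomes, a log2 change of 4.18 (SE 0.40). Its values in SMN replicates 1 to 3 were 1380, 558 and 1780 CPM. Sptbn1, the beta-II spectrin of the membrane skeleton, had 6183 CPM in IgG and 465 and 445 in polysomes, a log2 change of 3.76 (SE 0.34). Here SMN replicate 3, at 6248 CPM, was as high as IgG, and the RiboLace libraries, at 650 and 730, were near the polysomes. Plec, the linker plectin, had 252 CPM against 19.5 and 10.2. At that polysome level Plec could pass the filter only by its IgG level, so that it lay higher follows from the filter. Ahnak, a giant scaffold under the plasma membrane, had 333 CPM against 36.6 and 33.5, a polysome level that alone would not pass the filter. Myh10, non-muscle myosin IIB, had 1771 CPM against 221 and 211, and Sptbn4, the beta-IV spectrin of axon initial segments and nodes of Ranvier, had 365 against 41.8 and 40.5.

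Counted as a list, all 36 of the giant linkers and scaffolds were tested, and 29 were called higher and none lower. The median log2 change was 1.94, against -0.01 over all genes tested. Among the 126 genes with 8000 coding bases and over it was 1.42, and 59.5% were called higher. The lowest member of the list was at 0.59. The called members included further motors and anchors (Myh9, Myo5a, Dync1h1, Ank2, Ank3, Sptan1), the nuclear envelope linkers Syne1 and Syne2, giant ubiquitin ligases (Huwe1, Herc1, Herc2, Ubr4, Birc6), lipid transfer proteins of the Vps13 family and the presynaptic scaffold Pclo. Leaving out 1 polysome library kept 21 to 22 called. Against the RiboLace libraries, 10 of the 36 were called higher in IgG, where 0.221% of all genes tested were, and against SMN none was called in either direction. Those comparisons share the IgG library with the comparison against polysomes.

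**Figure D3:**
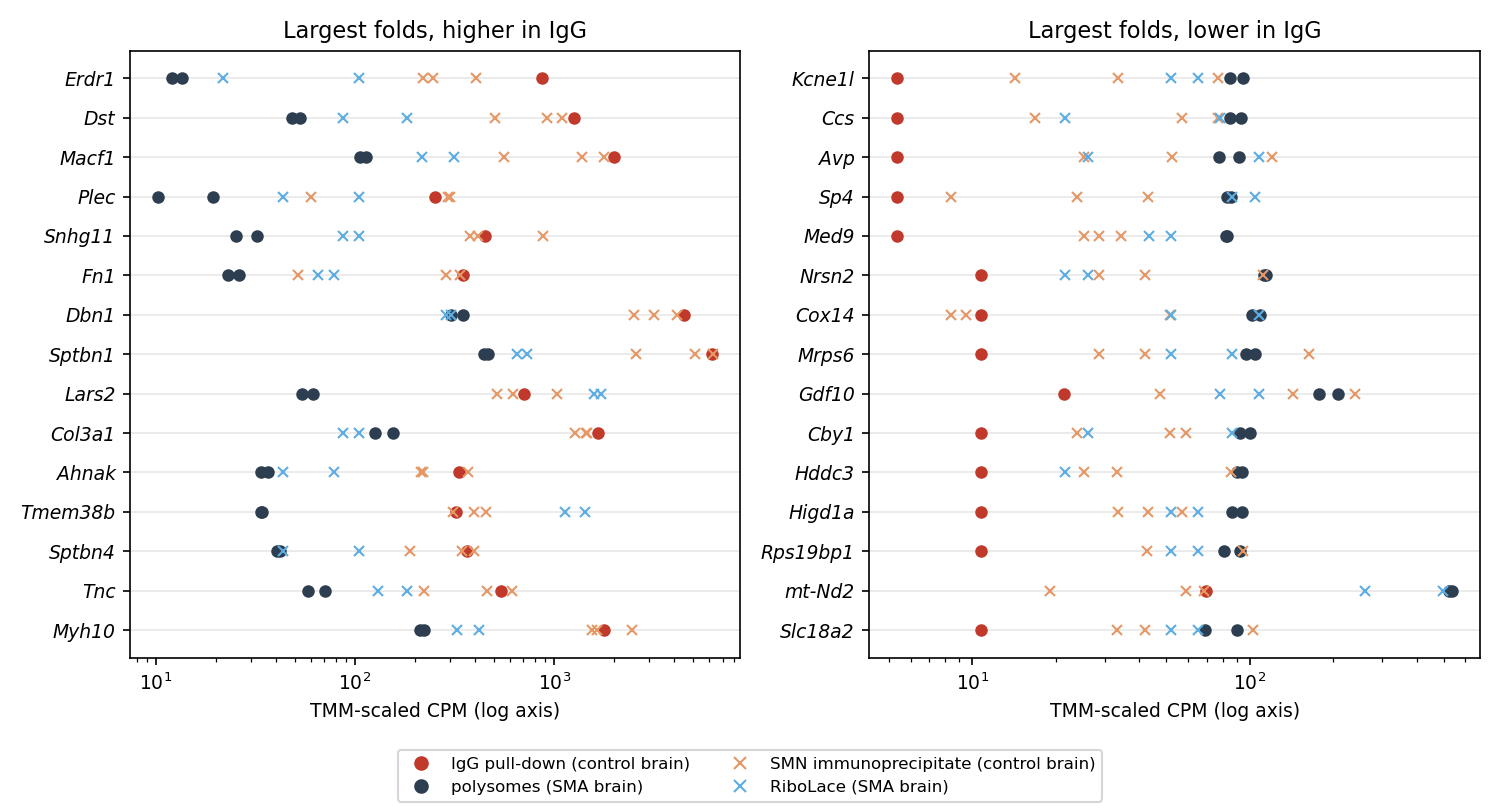
TMM-scaled CPM (log axis) of the 15 named genes with the largest folds in each direction, 1 symbol per library. Values of 0 are not drawn. On the left the IgG point lies far right of both polysome points and mostly among the SMN immunoprecipitates, and on the right it lies below both polysome points.

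Fold changes rose with the length of the coding sequence. The median log2 fold change was -0.43 for the 807 genes with a coding sequence under 500 bases, -0.43 for 1774 genes from 500 to 999, -0.10 for 3087 from 1000 to 1999, 0.31 for 2161 from 2000 to 3999 and 1.00 for 757 genes of 4000 bases and over. Of the last, 291 (38.4%) were called higher and 1 lower (0.132%), and of the 126 genes of 8000 bases and over, 75 (59.5%) were called higher and none lower. Of the 2581 genes under 1000 bases, 60 were called higher and 198 lower. These 2581 genes had a median of 8 IgG reads, and the filter favours calls downward among genes low in IgG. The genes called higher had a median coding length of 3249 bases, those called lower 915 and the others 1416. Spearman's rho between coding length and fold change was 0.40 across the 8586 genes, which are not independent replicates and share the same 3 libraries, whereas rho was 0.03 for the 5′ UTR length and 0.06 for the 3′ UTR length. The polysome level hardly differed between the bins of coding length, with medians from 57.3 to 73.5 CPM.

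**Figure D4:**
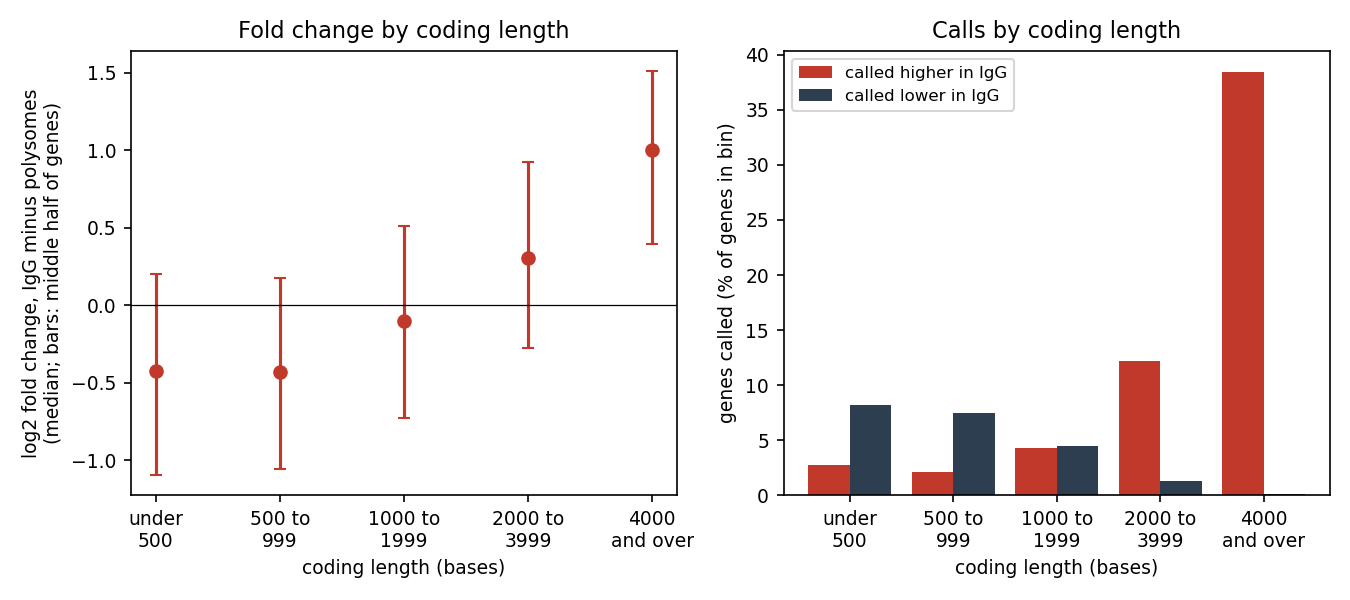
Left, median log2 fold change of IgG over polysomes in 5 bins of coding length, with bars over the middle 50% of genes. Right, percent of genes in each bin called higher or lower, from 2.73% higher and 8.18% lower under 500 bases to 38.4% and 0.132% at 4000 bases and over.

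The slope over coding length held in the share of reads too. Genes with a coding sequence of 4000 bases and over took 16.5% of the coding reads in IgG and 9.04% and 9.21% in polysomes. The SMN immunoprecipitates gave 14.7% to 16.3% and the RiboLace libraries 8.08% and 8.54%. Genes under 1000 bases took 21.3% of the coding reads in IgG and 29.5% and 29.3% in polysomes. Over the same polysome libraries, the SMN immunoprecipitates had medians of -0.37, -0.34, -0.06, 0.26 and 0.87 in the 5 bins and the RiboLace libraries 0.26, -0.17, -0.23, -0.22 and -0.08. These values share the polysome libraries with the IgG values and are given side by side for that reason.

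Long messages of the nucleus and of the cell surface also lay higher in IgG. Over all genes of 4000 coding bases and over, the median log2 fold change was 1.00 and 38.4% were called higher. Of 34 long chromatin regulators tested, 24 were called higher and none lower, with a median log2 fold change of 1.33. Ep400, an ATPase of the TIP60 complex that exchanges histone variants, had 274 CPM in IgG and 44.6 and 40.9 in polysomes, a log2 change of 2.68 (SE 0.35, adjusted p = 3.77e-06). Trrap, a scaffold of the same complex, had 386 CPM against 60.1 and 62.6, and Kmt2d, a histone H3 lysine methyltransferase at enhancers, had 499 CPM against 107 and 94.9. Leaving out either polysome library left 5 of the 24 called. Of 36 receptors and ion channels, 14 were called higher and none lower (median 0.93). Scn8a, a voltage-gated sodium channel, had 140 CPM against 30.3 and 29.9, a polysome level that alone would not pass the filter. Cacna1b, the pore of N-type calcium channels, had 274 against 63.5 and 78.5. Of 44 genes of adhesion and axon guidance, 13 (29.5%) were called higher and none lower. Their median of 0.51 lay below that of all genes of 4000 coding bases and over, though their median coding length was 4450.5 bases. Among those called higher were L1cam, a neural adhesion molecule, with 1277 CPM against 354 and 373, and the guidance cue Slit1, with 268 against 79.0 and 90.8.

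Collagens and matrix proteins lay higher as well. Of 33 tested, 15 (45.5%) were called higher, against 8.72% of all genes tested, and 1 lower, with a median log2 fold change of 1.22. Col3a1, a fibrillar collagen of vessels and meninges, had 1653 CPM in IgG (95% Poisson interval 1474 to 1848) and 125 and 155 in polysomes, a log2 change of 3.56 (SE 0.30, adjusted p = 4.65e-10). The SMN immunoprecipitates held 1270, 1451 and 1466 CPM of it and the RiboLace libraries 86.6 and 104. The 4 IgG and SMN libraries, from control brain, were high and the other 4, from SMA brain, low, with no overlap. Preparation and genotype cannot be told apart in this split. Col3a1 was picked for its fold, and the share of all genes that split in this way was not counted. Of the 749 genes called higher, 743 also had a positive fold over polysomes in the SMN immunoprecipitates, as did 3543 of the 7471 not called. Both folds share the polysome libraries, and the 749 were picked by theirs, so the overlap was favoured in advance. Fn1, fibronectin, had 349 CPM against 22.9 and 26.2, a polysome level that alone would not pass the filter. Tnc, tenascin-C, a matrix protein of developing brain, had 542 against 70.4 and 58.1, and Col4a1, a basement membrane collagen, had 714 against 141 and 161. The member called lower was Sparcl1 (hevin), an astrocyte matrix protein, which had 639 CPM against 1499 and 1458 and falls outside the rule for named genes, having been picked after its value was seen.

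Calls were not limited to long coding sequences. The tubulins, the subunits of microtubules, have coding sequences near 1350 bases. Of 13, 8 (61.5%) were called higher, against 8.72% of all genes tested, and none lower (median 1.49). Tuba1a, the main alpha-tubulin of new neurons, took the most reads of any coding gene in the IgG library, 2238. It had 12012 CPM there, and 2296 and 1936 CPM in polysomes, a log2 change of 2.51 (SE 0.32, adjusted p = 2.03e-06). The SMN immunoprecipitates held 13744, 6077 and 11483 CPM and the RiboLace libraries 9271 and 10635, so the polysome pair was the low group. Tuba1b and Tuba1c had log2 fold changes of 2.48 and 2.66, but their near-identical sequences can share reads with Tuba1a, and the 3 values may not be independent. Among the beta-tubulins, Tubb2b rose by 2.03 (SE 0.27), Tubb2a by 1.95, Tubb5 by 1.49 and the neuronal Tubb3 by 1.34. Those 7 tubulins were among the 10 genes with the most IgG reads, with Map1b, Sptbn1 and Dbn1. Tubg1, the gamma-tubulin of microtubule nucleation, was not called (-0.95). No tubulin was called between IgG and RiboLace, and the list's median over polysomes in the RiboLace libraries was 1.63.

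Messages for other cytoskeletal proteins of neurons split. Dbn1, drebrin, an actin-binding protein of growth cones and spines, had 4492 CPM in IgG and 347 and 305 in polysomes, a log2 change of 3.79 (SE 0.30, adjusted p = 1.28e-10). Its SMN values were 3179, 2524 and 4121 CPM and its RiboLace values 303 and 287. Again the 4 IgG and SMN libraries, from control brain, were high, with no overlap with the 4 from SMA brain. Dbn1 too was picked for its fold. Its coding sequence, 1983 bases, is short beside those of the spectraplakins. Of 31 growth cone and microtubule-associated genes, 13 (41.9%) were called higher and 1 (3.23%) lower (median 0.90). Over all genes tested these shares were 8.72% and 4.26%. Map1b, a microtubule-associated protein of growing axons, had 8829 CPM against 3932 and 3607. Kif1a, the axonal kinesin of synaptic vesicle precursors, had 1675 against 441 and 464. Nes, the intermediate filament nestin of progenitors, had 188 against 26.9 and 24.9, a polysome level that alone would not pass the filter. Of 26 actin and actin-binding genes, 5 (19.2%) were called higher and 1 (3.85%) lower. Their median was 0.25, which was 0.00 with library totals and -0.03 with noncoding genes included. Besides Dbn1 the higher ones were Actb (log2 fold change 1.66, SE 0.32), Actg1 (1.63), Coro1a and the short thymosin message Tmsb10 (1.54, coding length 135 bases).

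Lists of the translation machinery and of basic metabolism had medians below those of the giant linkers, tubulins, chromatin regulators and matrix genes. Of 49 proteins of the large ribosomal subunit, 8 were called higher (16.3%) and none lower (median 0.56). Of 33 of the small subunit, 3 were called higher and none lower (median 0.49). That share, 9.09%, is near the 8.72% of all genes tested. Both lists hold short coding sequences, with medians of 447 and 438 bases. Rpl9 had 199 CPM in IgG and 49.8 and 50.3 in polysomes, a log2 change of 1.98 (SE 0.38). Of 15 elongation factors and other messages with a 5′ terminal oligopyrimidine tract, 3 were called higher: Eef1a1 (1.69, SE 0.35), which delivers tRNAs to the ribosome, Eef2 (1.17), which moves it along, and Gnb2l1 (1.25), which encodes the ribosome-bound scaffold RACK1. Among 32 initiation factors, 2 were called higher and 5 lower. The 2 were the long scaffolds Eif4g1 (2.34, SE 0.36) and Eif4g3 (1.38), and the 5 included Eif1b (-2.30, SE 0.49), a factor of start codon choice, and Eif3k, at 53.7 CPM in IgG against 225 and 206. Of 21 aminoacyl-tRNA synthetases, 5 were called higher, led by Iars (1.56, SE 0.40), and the list's median of 0.21 was -0.04 with library totals. Of 16 glycolytic genes, 5 were called higher and none lower (median 0.59), among them Gapdh, at 295 CPM against 128 and 129. The Gapdh call was kept in 7 of 18 alternatives and lost with DESeq2, limma-voom and library totals. Those of Eno1, Pgam1 and Pfkp were kept in 5, 6 and 12. Of 24 chaperones of the cytosol, 5 were called higher, including the chaperonin subunits Cct3 and Tcp1 and the chaperone Hspa8, and 1 lower.

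Other lists had medians between -0.42 and 0.28. In those given here, 0% to 9.09% of members were called higher, against 8.72% of all genes tested, so these counts say little. From 0% to 11.8% were called lower, against 4.26% of all genes tested. They included the synaptic vesicle genes, with 2 of 36 called higher, Unc13a and Ap2a1, and none lower (median 0.00). The proteasome had 1 of 32 called in each direction (-0.12) and chaperones and translocon of the endoplasmic reticulum 2 of 32 in each direction (-0.30). SR proteins and related splicing factors had 2 of 22 called higher, the long messages Prpf8 and Son, and none lower (-0.18). RNA-binding proteins of the hnRNP and neuronal kind had 4 of 45 called higher and 3 lower, among the latter Elavl1 (-2.13, SE 0.45), which encodes the HuR protein that stabilises messages, and Nova1 (-2.01, SE 0.54), a neuronal splicing regulator. Of 17 genes of the SMN complex and the Sm ring tested, of 22 listed, none was called higher and 2 lower (median -0.42), Snrpd2 (-1.42, SE 0.41) and Snrpd3 (-1.67, SE 0.49), both subunits of the ring that SMN loads on snRNAs. Core histones had 4 of 58 called higher, all of them copies of the H4 gene that can share reads, with a median of 0.28 (0.03 with library totals and -0.00 with noncoding genes included).

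**Figure D5:**
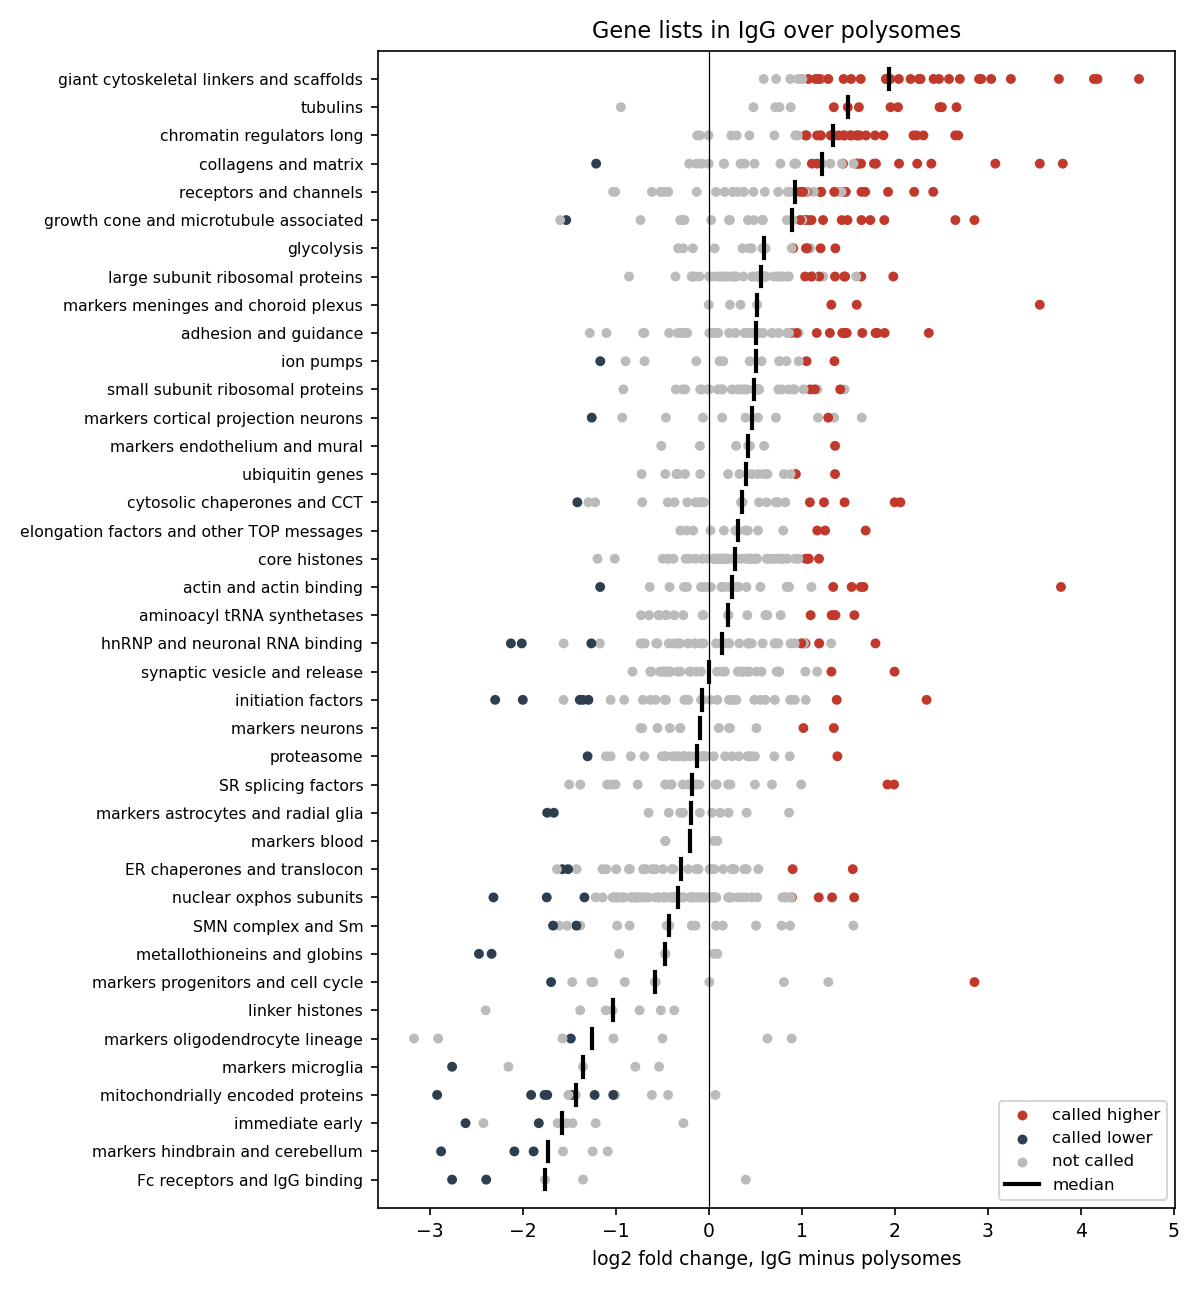
Log2 fold change of IgG over polysomes for each tested member of the gene lists, 1 row per list, with calls coloured and the median as a black bar. The giant linkers (median 1.94), tubulins (1.49), chromatin regulators (1.33) and matrix genes (1.22) lie highest, and mitochondrially encoded messages (-1.43), immediate early genes (-1.57) and genes that bind IgG (-1.76) lie low.

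The messages translated inside mitochondria lay lower in IgG. All 13 were tested, 7 were called lower and none higher, and the median log2 fold change was -1.43. mt-Nd2, a subunit of respiratory complex I, had 69.8 CPM in IgG (95% Poisson interval 37.2 to 119, from 13 reads) and 522 and 537 in polysomes, a log2 change of -2.92 (SE 0.49, adjusted p = 0.000133). The SMN immunoprecipitates held 58.9, 68.7 and 19.0 CPM and the RiboLace libraries 498 and 261. The 4 IgG and SMN libraries, from control brain, were low and the other 4, from SMA brain, high, with no overlap. Preparation and genotype cannot be told apart here either, and mt-Nd2 was picked by its result. Of the 366 genes called lower, 3 had a positive fold over polysomes in the SMN immunoprecipitates, against 3543 of the 7471 not called. Here too both folds share the polysome libraries, so the overlap was favoured in advance. mt-Nd5 had 435 CPM in IgG against 1423 and 1533 in polysomes, and mt-Cytb, of complex III, had 338 against 1310 and 1232 (log2 fold change -1.91, SE 0.39, adjusted p = 0.00127). mt-Nd6 had 118 against 372 and 415. mt-Atp6 was not called, at 0.07. Against RiboLace 5 of the 13 were called lower, where 0.116% of all genes tested were. Leaving out 1 polysome library left 2 to 3 of the 7 called. The rRNAs of mitochondria, given above, were higher in the same IgG library. The nuclear genes of oxidative phosphorylation, read on cytosolic ribosomes, had 4 of 76 called higher and 3 lower (median -0.34). These shares, 5.26% and 3.95%, are below the 8.72% and 4.26% of all genes tested. Among those called, Ndufv1 was at 1.56 (SE 0.30) and Ndufc2 at -2.31 (SE 0.47).

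Most of the other named messages with large folds downward had short coding sequences and few IgG reads. Kcne1l, Ccs, Avp, Sp4 and Med9 were each read once in IgG and 347 to 380 times in the polysome libraries together. For Kcne1l the polysome level was 16.9 times the IgG level, with a counting interval of 3.01 to 669, and for Avp, the vasopressin precursor of hypothalamic neurons, it was 16.0 times (2.85 to 634). Nrsn2, a vesicle membrane protein of neurons, was read 2 times and its ratio was 10.6 (2.91 to 87.6). Cox14 and Higd1a, which encode small proteins of the inner mitochondrial membrane, had ratios of 9.91 (2.73 to 82.1) and 8.46 (2.33 to 70.2). Gdf10, a growth factor of Bergmann glia, had 4 IgG reads, 21.5 CPM, and 177 and 209 in polysomes, a log2 change of -3.16 (SE 0.71, adjusted p = 0.00400). A further 18 genes tested had no IgG read. These 18, and the genes above read 1 to 4 times in IgG, could pass the filter only by their polysome level. That they lay lower in IgG therefore follows from the filter. Against the floor, Enox1 was at least 4.25-fold lower, Smim18 at least 4.17-fold, Ralyl at least 4.03-fold and Slc6a3, the dopamine transporter, at least 2.47-fold.

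The 7 genes called lower under every alternative had from 5 to 63 IgG reads, and 3 of them fall outside the rule for named genes. Besides mt-Nd2 and mt-Cytb they were Jund, Calb2, Thy1, Prcc and Bcar1. Jund, Calb2 and the gene with 5 reads would not pass the filter by their IgG level alone, so the filter favours a call downward for them. Thy1, the glycoprotein anchored on neuronal membranes, had 48.3 CPM in IgG and 295 and 300 in polysomes, a log2 change of -2.62 (SE 0.54, adjusted p = 0.00152). Jund, a transcription factor of the AP-1 family, had 32.2 CPM against 199 and 198, and Jun had 48.3 against 172 and 172. Of 15 immediate early genes listed, 8 were tested, Jun and Jund were called lower and none was called higher (median -1.57). Those called lower are 25% of the 8, against 4.26% of all genes tested. The metallothioneins Mt1 and Mt2, small metal-binding proteins, were called lower at -2.33 (SE 0.55) and -2.47 (SE 0.51).

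Few genes whose products bind antibody could be tested. Of 11 Fc receptors and other IgG-binding proteins listed, 5 passed the filter on low values, none was called higher, where 8.72% of all genes tested were, so that 0 of 5 says little, and the complement subunits C1qb and C1qc were called lower. C1qb had 2 reads and C1qc 3 reads in IgG, with polysome levels 6.91 times (1.90 to 57.3) and 5.30 times (1.80 to 25.8) the IgG levels. With so few IgG reads, both could pass the filter only by their polysome level, so that they lay lower follows from the filter. Fcer1g, Fcgr1, Fcgr4 and Trim21 had no IgG read.

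Some markers of cell types were called in the comparison. Over all genes tested 8.72% were called higher and 4.26% lower, so 1 or 2 members called in a list say little. In a bulk sample, fewer cells of a type and less RNA per cell cannot be told apart. Of 12 markers of hindbrain and cerebellum, 6 were tested, and Calb1, Calb2 and Neurod1 were called lower and none higher (median -1.73). Calb2, the calcium buffer calretinin, had 32.2 CPM in IgG (95% Poisson interval 11.8 to 70.1) and 241 and 235 in polysomes. The SMN immunoprecipitates held 101, 309 and 157 CPM of it. By its IgG level alone Calb2 would not pass the filter on low values, so the filter favours a call downward for it. The summed level of the list was 445 CPM in IgG, 1294 and 1402 in polysomes and 700 to 1991 in the SMN immunoprecipitates, and Atoh1, En2, Hoxb5 and Zic4 had no IgG read. For microglia, 5 of 10 were tested and C1qb was called lower, a gene that could pass the filter only by its polysome level. The summed level of the microglia list was 263 CPM in IgG against 580 and 557. For the oligodendrocyte lineage, 8 of 10 were tested, Olig1 was called lower and the summed level was 730 CPM against 995 and 1244. For astrocytes and radial glia, Gja1 and Sox9 of 12 were called lower, with a median of -0.19, while the summed level was 4889 CPM in IgG and 4652 and 4785 in polysomes. Neuronal markers had 2 of 12 called higher, Tubb3 and Stmn2, with a median of -0.10. Cortical projection neurons had 1 of 12 called in each direction, with Neurod2 lower. For meninges and choroid plexus, 7 of 10 were tested, Col3a1, Col1a1 and Igf2 were called higher and none lower, and the summed level was 4916 CPM in IgG against 2173 and 2273. Among 4 tested markers of blood none was called in either direction. The part of these cell types in the gene lists above was not tested.

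A few messages rose in patterns that set them apart from the long coding genes. Snhg11, a host gene of snoRNAs with an annotated coding sequence of 264 bases, had 451 CPM in IgG and 32.0 and 25.4 in polysomes, a log2 change of 3.98 (SE 0.39). Lars2, the leucyl-tRNA synthetase of mitochondria, had 703 CPM in IgG and 61.8 and 54.0 in polysomes, but 1581 and 1720 in the RiboLace libraries. Tmem38b, an intracellular cation channel, had 322 CPM against 33.8 and 33.9, and 1126 and 1434 in RiboLace, from which IgG differed by -1.98 on the log2 scale (adjusted p = 0.00504). Erdr1, a gene near the tip of the X chromosome, had 864 CPM in IgG and 12.02 and 13.5 in polysomes, a log2 change of 6.05 (SE 0.30). Erdr1 could pass the filter only by its IgG level, so that it lay higher follows from the filter. For Snhg11 and Tmem38b the polysome level alone would not pass the filter. Lars2, Tmem38b and Erdr1 belong to a list of 7 genes whose counts may hold reads of rRNA or repeats. All 7 were positive and 5 were called higher (median 3.24).

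Few coding genes were called between the IgG library and the SMN immunoprecipitates at this depth. Of 8586 coding genes, 2 were called higher in IgG (0.0233%), Gm21887 and Erdr1, and 0 were called lower by the edgeR quasi-likelihood test. At an unadjusted p under 0.05 there were 196 higher and 255 lower. For Dst, Macf1, Sptbn1 and Dbn1 the log2 differences from the SMN immunoprecipitates were 0.56, 0.66, 0.41 and 0.45, each with an adjusted p of 0.96. Against RiboLace, 19 were called higher (0.221%) and 10 lower (0.116%). Dbn1 differed from RiboLace by 3.93 (adjusted p = 5.16e-08), Col3a1 by 4.12 (adjusted p = 1.17e-06) and Sptbn1 by 3.17 (adjusted p = 3.36e-06).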

How the data were processed

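The deposited table holds whole-number read counts per Ensembl transcript, not normalized, beside the length of each transcript and of its coding part and UTRs, per the file headers. Trimmomatic 0.36, Bowtie2 2.2.6, SAMtools and GRCm38.p4 are named in the submitters' processing notes. The handling of reads that match several transcripts was not given in the sources used here. One protein_coding transcript stood for each gene, that with the largest summed library-scaled count. Counts were fitted with edgeR 4.0.16 (robust quasi-likelihood, TMM, two-sided) in R 4.3.3, with all 8 libraries in 4 groups and 4 residual degrees of freedom, because the IgG group has 1 library. Genes with a mean of at least 20 CPM over the IgG and mean polysome levels were tested, and an adjusted p under 0.05 was a call. Standard errors were the absolute log2 change over the root of the F statistic. CPM are TMM-scaled. Named genes were the 15 with the largest fold up and down past the test at a log2 CPM averaging at least 6, passing over predicted genes, the 10 with the most IgG reads, and up to 4 members of each list. The 41 gene lists and the libraries compared were chosen with earlier results of these data known. Alternatives were DESeq2 1.42.0, limma-voom (limma 3.58.1), other scalings and filters, a replicate block, left-out libraries, summed transcripts and noncoding genes included. The procedure was tested on simulated data. Python 3.11.15, pandas 2.3.3 and matplotlib 3.10.9 were used. A few genes that the rule names are not reported here.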

Additional observations from a re-analysis of the deposited data

Results flagged for a closer look

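The IgG library and the SMN immunoprecipitates, prepared alike from brains of the same genotype, differed past the test in their fold over polysomes for 2 coding genes. Gm21887 was higher in IgG than in the SMN immunoprecipitates by 2.40 on the log2 scale (edgeR adjusted p = 2.29e-05), with 509.9 CPM in IgG and 75.7, 94.4 and 109 in SMN replicates 1 to 3. Erdr1 was higher by 1.61 (adjusted p = 0.00411), with 864 CPM in IgG and 219, 403 and 247 in the SMN replicates. Both belong to the list of genes whose counts may hold repeat reads, and whether the 2 share reads was not tested. Low in polysomes, both passed the filter by their IgG level, which favours a call upward.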

How the results depend on the processing

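No call of a gene was reversed under any alternative, but counts of calls moved, and scaling by library totals turned the balance of calls. Scaling or the inclusion of noncoding genes turned the sign of list medians near 0 (actin genes, tRNA synthetases, core histones, hnRNP genes). Genes called higher and lower (749 and 366) were 1372 and 1119 with only the IgG and polysome libraries, 398 and 97 with DESeq2, 682 and 130 with limma-voom, 522 and 824 with library totals, 397 and 130 with counts summed over transcripts, and 1622 and 1065 with noncoding genes included. With 1 library left out they ranged from 123 to 1276 and from 19 to 969. The lowest pair came without polysome replicate 2 and the highest without SMN replicate 2. Genes of 4000 bases and over called higher (291) were 192 with DESeq2, 184 with summed transcripts and 65 to 382 with 1 library left out. Genes under 1000 bases called lower (198) were 562 with only the compared libraries, 49 with DESeq2, 74 with limma-voom, 432 with library totals, 77 with summed transcripts, 529 with noncoding genes and 9 to 497 with 1 library left out. Summed transcripts left 12 of 24 chromatin regulators and 4 of 7 mitochondrial messages called, and leaving out 1 library left 5 to 27, 2 to 10 and, for tubulins, 5 to 11. The cause was not tested. Leaving out a polysome library, or adding the block, also leaves fewer residual degrees of freedom. Over all transcripts the coding share of IgG was 63.4% and the snRNA share 6.66%, and with snRNA copies of 1 length counted once they were 72.4% and 2.07%. A replicate block gave 189 genes called higher and 39 lower, 108 of the long and 24 of the short genes, 8 chromatin regulators and 3 mitochondrial messages. The labels do not say that the numbers pair samples, and deviations of same-numbered libraries correlated at -0.04, 0.01 and 0.01. The IgG depth limits genes with few reads: a gene with no IgG read cannot be bounded below 16.1 CPM.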

Other observations

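Linker histones, which bind the DNA between nucleosomes, gave negative values throughout: all 7 members were tested, their log2 fold changes over polysomes ran from -2.40 to -0.37 with a median of -1.03, and none passed the test. Hist1h1a was read 5 times in IgG, at 26.8 CPM, against 148 and 137 CPM in polysomes (adjusted p = 0.0817). H1f0 had 107 CPM against 215 and 225 (adjusted p = 0.101). The same 7 genes had a median of 0.61 in the SMN immunoprecipitates and 0.32 in the RiboLace libraries over the same polysome libraries, with 4 and 5 of the 7 positive. Their summed level was 1699, 4008.5 and 1309 CPM in SMN replicates 1 to 3, against 1672.5 and 1576 in polysomes. SMN replicate 2, which stood apart, was thus the high one, and replicate 3 lay below the polysomes.

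Ion pumps had 2 of 14 members called higher, the plasma membrane calcium pumps Atp2b4 (1.35, SE 0.35) and Atp2b2 (1.05, SE 0.36, called in 5 of 18 alternatives and lost with DESeq2, limma-voom and library totals), and 1 lower, Atp1b2 (-1.17, SE 0.39), a beta subunit of the sodium pump with a coding sequence of 873 bases. For the pumps these shares were 14.3% and 7.14%, against 8.72% and 4.26% of all genes tested, so such small counts say little. Of 11 tested markers of progenitors and cycling cells, Nes was called higher and Sox2 lower (-1.70, SE 0.53), with a median of -0.58. Of 7 tested markers of endothelium and mural cells, Kdr, a receptor for VEGF, was called higher (1.36, SE 0.45), a call kept in 6 of 18 alternatives and lost with the same 3 among others.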
